A study of Homo sapiens with 2 samples.

Results

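The TNF receptor and ligand superfamily was examined in the triple-negative breast cancer line MDA-MB-231, given either a negative control siRNA or an siRNA against the long non-coding RNA USP30-AS1. Its members were taken by gene symbol: every gene named TNFRSF or TNFSF, together with FAS, FASLG, TNF, LTA, LTB, LTBR, CD40, CD70, CD27, EDAR, EDA2R and NGFR. This gave 45 of the 20289 genes in the deposited table, of which 28 encode receptors, 16 encode ligands and 1 is the readthrough gene TNFSF12-TNFSF13. Poly(A) RNA from 1 library of each kind was sequenced, to 23287817 counts in the control library and 19569214 counts in the library of the USP30-AS1 siRNA, called the knockdown library here. With 1 library per group no difference below has a replicate check or a p-value, and the intervals given with folds are 95% exact counting intervals that cover counting error only. Where a pair of values is given, the control library comes first. The level of USP30-AS1 was not analysed here, and the extent of its silencing is not shown.

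Ligands of this superfamily are trimeric proteins that bind receptors with cysteine-rich extracellular repeats. Death receptors carry a cytoplasmic death domain, through which FADD or TRADD can be recruited and caspase-8 or NF-kB engaged. The other signalling receptors lack this domain and bind TRAF proteins directly, which mainly leads to NF-kB and MAP kinase activity and, in many cells, to survival. Decoy receptors bind ligand without passing on a death signal. In breast cancer cells the receptors of TRAIL and TNF are those most studied.

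Some members share short sequences in their 3' UTRs with many other genes of the table. In an earlier examination of these same libraries, genes with AACTCCA or ACTCCAA in the 3' UTR (the low word) tended to be lower and genes with CCTAAGA or CTAAGAA (the high word) higher in the knockdown library, so the words are not independent of these data. The sense strand of the annotated 3' UTRs of protein-coding transcripts was searched, except in transcripts whose mRNA end is annotated as not found. The words within each pair overlap each other. In GENCODE release 29 the low word was present in 20.8% and the high word in 20.7% of the 11410 compared genes with an annotated 3' UTR. All 45 members have an annotated 3' UTR, of which 5 (11.1%) held the low word, 9 (20%) the high word and 2 both. Carriers over all compared genes had median log2 ratios of -0.11 (low word) and 0.08 (high word) and longer 3' UTRs, with medians of 2992 and 3226 bases against 1177 and 1156 in the other genes. The sites below are shown because they mark which members belong to these gene sets. Capitals mark the word.
TNFRSF12A, chr16:3022275-3022281, plus strand: gagggctggcCCTAAGAtacagacccc
TNFSF13B, chr13:108306987-108306993, plus strand: ctctgtacctCTAAGAAgaaagaatct
TNFSF4, chr1:173185902-173185908, minus strand: agagagccgtCTAAGAAataccacgtg
TNFSF4, chr1:173185483-173185489, minus strand: tcaaatagcaCTAAGAAgttattgtgc
TNFRSF13C, chr22:41923866-41923872, minus strand: tctgccagaaCCTAAGAtgccattttg
TNFRSF13C, chr22:41923782-41923788, minus strand: ccagggctggACTCCAAactcgagctg
TNFRSF11A, chr18:62386134-62386141, plus strand: aaatttctaaAACTCCAAgttgctgcag
TNFRSF11A, chr18:62384771-62384777, plus strand, in another transcript: tggaaacagtAACTCCAcgttcatctc
Coordinates are GRCh38 and give the word itself. TNFSF15 held 4 low word sites and 1 high word site, TNFRSF10A 1 high word site and TNFRSF10D 1 low word site. FAS and TNFRSF21, the members at the ends of the range of log2 ratios below, held neither word, as did 10 of the other 14 compared members. The site in TNFRSF12A stands at position 449 of a 3' UTR of 557 bases.

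The cells expressed a small part of the family strongly. Of the 45 members, 11 had 0 counts in both libraries, 3 had reads in 1 library and 31 had reads in both. The control library held 16 members at 1 FPKM or more and the knockdown library 17, FPKM being the deposited level scaled for transcript length and sequencing depth. TNFRSF21, TNFRSF1A, TNFRSF10B and LTBR were the 4 highest members in both libraries on this scale. In the control library TNFRSF21 stood first, with 30.7% of the summed FPKM of the family, and TNFRSF1A second, with 21.0%. In the knockdown library their order was exchanged, with TNFRSF1A at 23.9% and TNFRSF21 at 17.3%. The summed level of the family was 1033 CPM (counts divided by library size and scaled between libraries) in the control library against 924 CPM after knockdown. Without TNFRSF21, which was left out after its values were seen, it was 603 and 684 CPM.

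**Figure D1:**
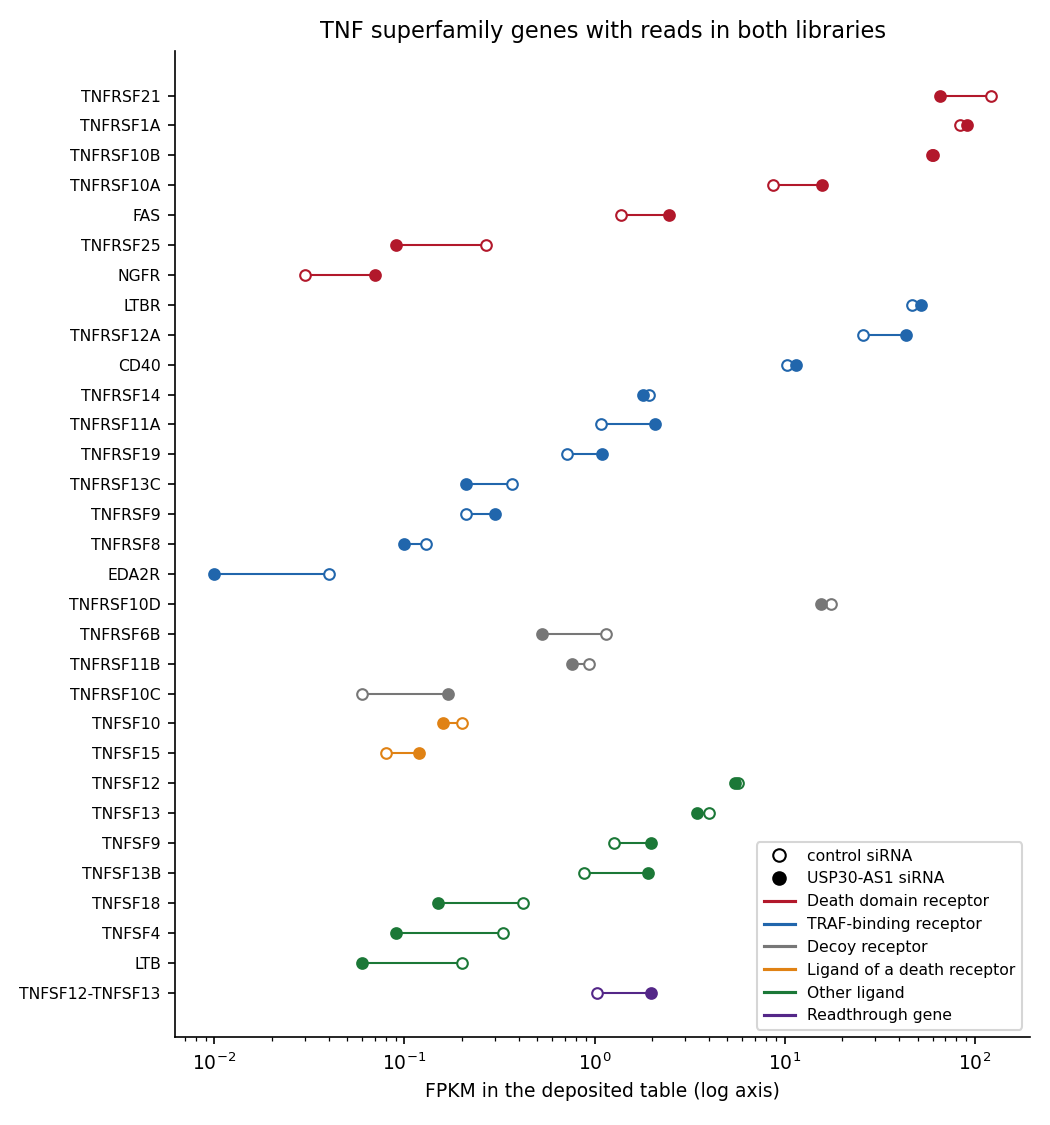
FPKM of the 31 family members with reads in both libraries, on a log axis, with the control library as open and the knockdown library as filled circles, 1 library each, coloured by role. TNFRSF21, TNFRSF1A, TNFRSF10B and LTBR stand at the right, and the ligands of death receptors all lie below 1 FPKM.

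A member was compared if its mean over both libraries was at least 50 counts, which 16 members reached, and it was counted as different if its log2 ratio of scaled CPM, with 0.5 CPM added to both libraries, was at least 1 in size, a 2-fold difference. Of the 16, 1 member passed this rule, FAS, which was higher in the knockdown library. Over all 11530 genes compared, 3.16% passed it in either direction. The median log2 ratio of the 16 was 0.22, against 0.00 for all compared genes. Of the 16, 12 lay above 0, where 5722 of all 11530 compared genes did. At 1.5-fold, 4 members were higher (FAS, TNFRSF10A, TNFRSF12A and the readthrough gene) and 1 was lower (TNFRSF21), where 6.1% of all compared genes were higher and 7.04% lower. The counting interval of the fold left out 1 for 10 of the 16 members, 8 higher and 2 lower, and it did so for 64.5% of all compared genes.

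Among the death receptors, TNFRSF21 was lower and FAS and TNFRSF10A were higher in the knockdown library. TNFRSF21 encodes DR6, a death domain receptor known for roles in neurons and T cells, and lies at chromosome 6, 47231532 to 47309905, minus strand. It had 10181 control and 4612 knockdown counts. This was 1.79-fold lower (1.73 to 1.86), a log2 ratio of -0.84, and its deposited FPKM was 121.61 in the control library against 65.56 after knockdown. It was the most abundant member of the control library and lay under the 2-fold rule. In bulk RNA, fewer cells expressing a gene and less RNA per cell cannot be told apart.

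FAS, whose product binds FAS ligand and recruits FADD and caspase-8, lies on the plus strand of chromosome 10 from 88990582 to 89015785. It had 49 control and 94 knockdown counts, or 1.38 and 2.46 FPKM. This was 2.36-fold higher (1.65 to 3.41), a log2 ratio of 1.07, and in FPKM its log2 ratio was 0.83, under the 2-fold rule, as it was with 2 CPM added (0.76). In counts FAS was among the least abundant of the compared members. It overlaps ACTA2 on the opposite strand by 758 bases, and ACTA2 had 15 and 19 counts. The sources used here do not give the strand setting of the counting, so reads in that overlap may belong to either gene.

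The receptors of TRAIL that carry a death domain did not show the same ratio. TNFRSF10A, which encodes DR4 and holds the high word, had 519 control and 674 knockdown counts, 1.60-fold higher (1.42 to 1.80). TNFRSF10B, which encodes DR5, had 4651 and 3913 counts, and its fold was 1.04 (0.992 to 1.08), an interval that includes no difference. In FPKM DR5 was the higher of the pair in both libraries, at 59.94 and 59.72 against 8.70 and 15.71 for DR4. TNFRSF10B overlaps RHOBTB2 on the opposite strand by 67 bases. The TRAIL receptor genes are paralogs. Their deposited counts were whole numbers in both libraries. The 4 members with decimals in each library were TNFSF12, TNFSF13, the readthrough gene and TNFRSF6B. How any reads shared between the TRAIL receptor genes were assigned was not tested.

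TNFRSF1A, the widely expressed TNF receptor, had 3617 control and 3463 knockdown counts, 1.18-fold higher after scaling (1.12 to 1.24), and 83.41 and 90.49 FPKM. The remaining death receptors were hardly detected. TNFRSF25, which encodes DR3, had 10 and 3 counts, NGFR, a neurotrophin receptor, had 2 and 5, and EDAR, the receptor of ectodysplasin, had 0 in both. A count of 0 allows up to 0.127 scaled CPM in the control library against 0.156 after knockdown (3 counts).

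Of the decoy receptors, TNFRSF10D, a TRAIL receptor with a truncated death domain, was the only one compared. It had 1444 control and 1073 knockdown counts, 1.09-fold lower (1.01 to 1.18), and it holds the low word. TNFRSF11B, which encodes osteoprotegerin, the soluble trap of RANK ligand, had 45 and 31 counts, 1.18-fold lower with an interval from 0.730 to 1.93. TNFRSF10C had 2 and 3 counts. TNFRSF6B, the soluble trap of FAS ligand, was assigned 31 and 12 counts, a value that depends on how reads were divided at its locus, as described further on.

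The receptors without a death domain were mostly higher by small amounts. Of the 6 compared, 5 lay above 0, where 5722 of all 11530 compared genes did. TNFRSF12A, which encodes Fn14, the receptor of TWEAK, lies on the plus strand of chromosome 16 from 3018445 to 3022383 and holds the high word at the site printed above. It had 572 control and 801 knockdown counts, 1.72-fold higher (1.55 to 1.92), with 25.93 and 43.32 FPKM. It overlaps CLDN6 on the opposite strand, which had 0 counts in both libraries. TNFRSF19, which encodes TROY, a receptor found in neural and epithelial progenitors, had 70 and 89 counts, 1.57-fold higher (1.13 to 2.17). These were the 2 members of the group with the highest log2 ratios, 0.77 and 0.57, and of the group only TNFRSF12A passed 1.5-fold on the log2 ratio with 0.5 CPM added.

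The other compared receptors of this group lay nearer to no difference. LTBR, the lymphotoxin beta receptor, which activates the non-canonical NF-kB route, had 2086 and 1925 counts and was 1.14-fold higher (1.07 to 1.21). It overlaps SCNN1A on the opposite strand by 2686 bases, and SCNN1A had 128 and 49 counts. CD40, a costimulatory receptor of antigen-presenting and many epithelial cells, had 389 and 364 counts (fold 1.15, 0.996 to 1.33). TNFRSF11A, which encodes RANK, had 149 and 152 counts (fold 1.26, 0.995 to 1.58) and holds the low word at 2 sites. TNFRSF14, the herpesvirus entry mediator, had 71 and 51 counts, 1.13-fold lower (0.778 to 1.65). The intervals of CD40, TNFRSF11A and TNFRSF14 include no difference.

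Several receptors best known from lymphocytes had no or few reads. TNFRSF1B, TNFRSF4, TNFRSF13B, TNFRSF17, TNFRSF18 and CD27 had 0 counts in both. TNFRSF8, which encodes CD30, had 7 and 5 counts, and EDA2R, a receptor of ectodysplasin A2, 3 and 1. TNFRSF9, which encodes 4-1BB, had 29 and 35, and TNFRSF13C, the BAFF receptor, 34 and 16. TNFRSF13C was 1.73-fold lower with an interval from 0.927 to 3.35, and it holds both words.

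**Figure D2:**
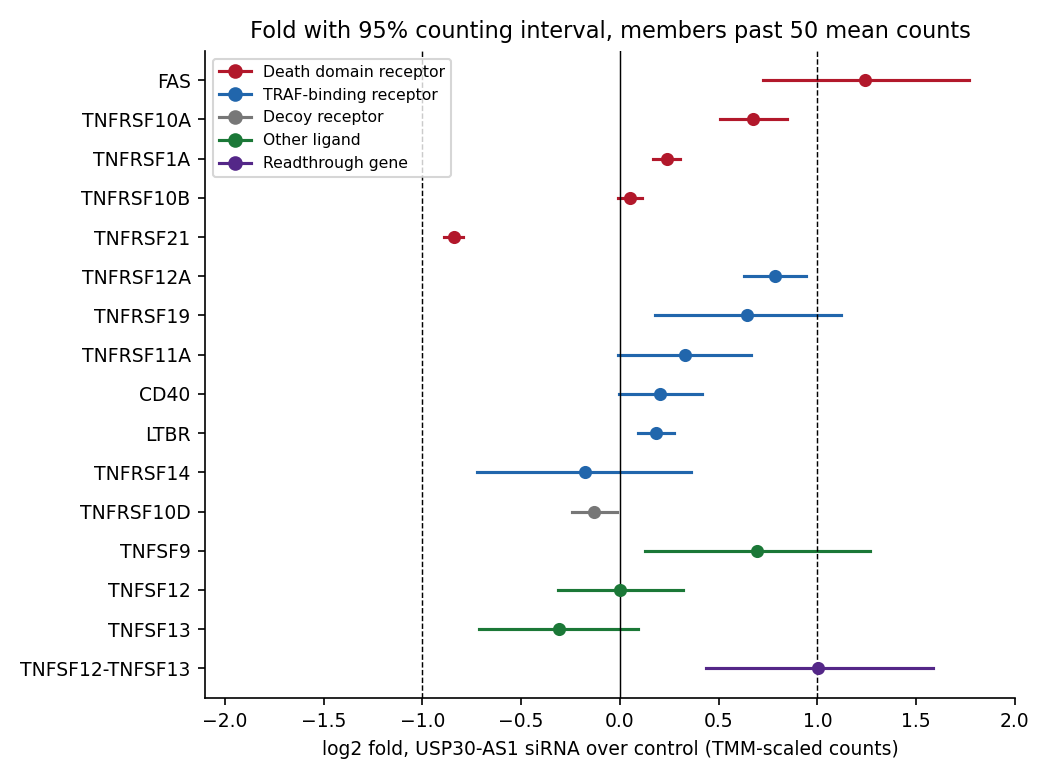
Log2 fold of the knockdown over the control library for the 16 members with a mean of at least 50 counts, from scaled counts with no pseudocount, with 95% exact counting intervals as lines (1 library per group) and dashed lines at 2-fold. FAS lies furthest right with a wide interval of 1.65-fold to 3.41-fold, and TNFRSF21 is the furthest left with a narrow one.

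Ligands were present at low levels. The summed FPKM of the 16 ligands was 13.25 in the control library against 13.5 after knockdown, while the 16 receptors without a death domain summed to 87.3 and 113 FPKM. TNF and the ligands TNFSF8, TNFSF11 and TNFSF14 had 0 counts in both libraries. FASLG had 0 and 1 counts, LTA 0 and 2, LTB 4 and 1, and CD70 3 and 0. TNFSF10, which encodes TRAIL, had 8 control and 6 knockdown counts, and TNFSF15, the ligand of DR3, had 12 and 16. The 5 ligands of death receptors together had 20 control and 25 knockdown counts, and the death receptors 19029 and 12764.

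Of the ligands, 3 were compared. TNFSF9, the ligand of 4-1BB, had 48 and 63 counts, 1.62-fold higher (1.09 to 2.40), with a log2 ratio of 0.58. TNFSF12, which encodes TWEAK, the ligand of Fn14, had 188 and 153 counts with a log2 ratio of 0.00, and TNFSF13, which encodes APRIL, had 134 and 88 counts with a log2 ratio of -0.28, but reads of these genes were divided with the readthrough gene. Of the 18 members with reads but under 50 counts, the interval of 4 left out 1, and it did so for 14.8% of all 4035 such genes. TNFSF4, the ligand of OX40, had 26 and 6 counts, 3.52-fold lower (1.42 to 10.5). TNFSF18, the ligand of GITR, had 27 and 8 counts, 2.74-fold lower (1.21 to 6.98). TNFSF13B, which encodes BAFF, had 20 and 37 counts, 2.28-fold higher (1.29 to 4.14). The last was TNFRSF6B, 2.10-fold lower (1.05 to 4.49). TNFSF4 and TNFSF18 are neighbours on chromosome 1 (minus strand), spanning 173183734 to 173207313 and 173039960 to 173050963, and TNFSF4 holds the high word at 2 sites.

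Ligand and receptor counts were set side by side for some known pairs, chosen after their values were seen. DR4 and DR5 had 519 and 4651 counts in the control library beside 8 counts of TRAIL, TNFRSF1A 3617 beside 0 of TNF, and LTBR 2086 beside 4 of LTB. The receptor 4-1BB had 29 and 35 counts beside 48 and 63 of its ligand, the BAFF receptor 34 and 16 beside 20 and 37 of BAFF, and DR3 10 and 3 beside 12 and 16 of TNFSF15. Counts are not corrected for transcript length. In control FPKM the BAFF receptor stood below BAFF (0.37 and 0.88), and DR3 above TNFSF15 (0.27 and 0.08). The receptor 4-1BB and its ligand stood at 0.21 and 1.26 FPKM in the control library. Fn14 and TWEAK stood at 25.93 and 5.70 FPKM in the control library and 43.32 and 5.51 FPKM in the knockdown library.

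Death receptors and receptors without a death domain had nearly the same median log2 ratio. It was 0.24 over the 5 compared death receptors (range -0.84 to 1.07) and 0.25 over the 6 compared receptors without a death domain (range -0.15 to 0.77), a difference of -0.02. The ranges of both groups overlap. In FPKM the medians were 0.12 and 0.39. The summed levels lay closer together in the knockdown library. The 8 death receptors summed to 275 FPKM in the control library against 234 after knockdown, and the 16 receptors without a death domain to 87.3 and 113 FPKM. Their ratio was 3.15 in the control library against 2.08 after knockdown, a log2 change of -0.60 (counting interval -0.68 to -0.52). Without TNFRSF21 that change was -0.24, without TNFRSF12A it was -0.41, and without both it was -0.045 (-0.14 to 0.05). These genes were left out after their values were seen.

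**Figure D3:**
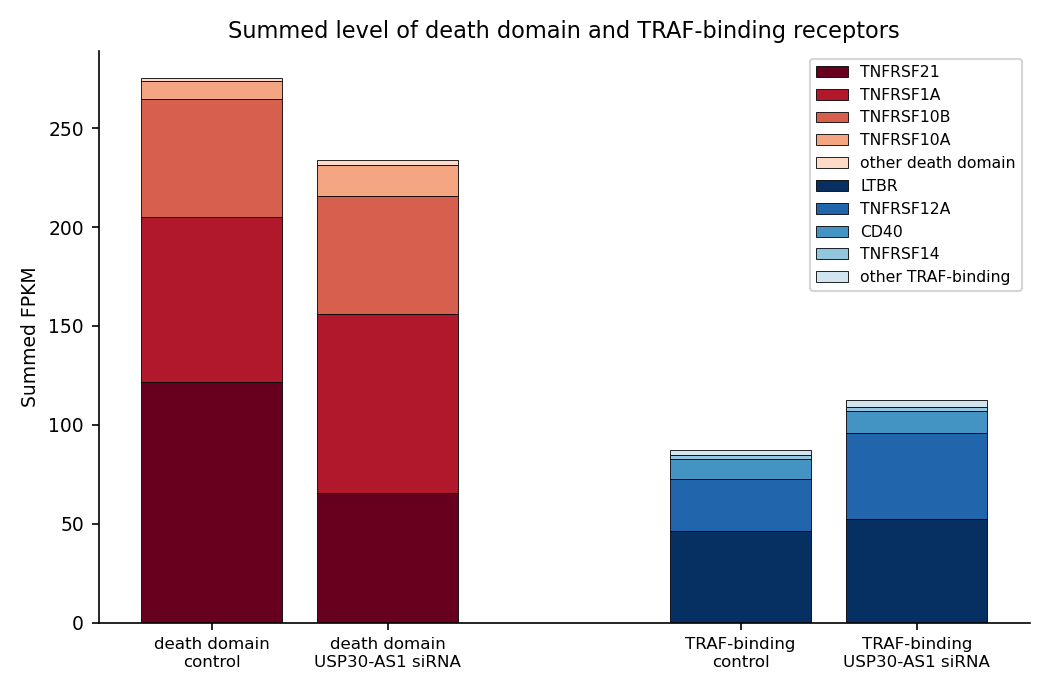
Summed FPKM of the 8 death domain receptors and the 16 TRAF-binding receptors without a death domain in each library, stacked by gene, 1 library per bar. The dark red TNFRSF21 segment shrinks from 121.61 to 65.56 FPKM, and the TNFRSF12A segment grows from 25.93 to 43.32 FPKM.

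For some members the deposited counts and FPKM gave different ratios. The transcript length that the authors' values imply, which is the count divided by the FPKM and the library total, was 5924 bases for TNFRSF11A in the control library against 3716 after knockdown, so that its log2 ratio was 0.31 in counts and 0.95 in FPKM. GENCODE lists 5 coding transcripts of TNFRSF11A, from 855 to 8147 bases. The implied length of FAS was 1525 bases in the control library against 1953 after knockdown, and 4 coding transcripts from 983 to 2563 bases are listed. These 2 of the 16 compared members had implied lengths at least 25% apart, a threshold chosen after the values were seen, as did 3.5% of all compared genes with an FPKM above 0 in both libraries. TNFRSF10A had implied lengths of 2562 and 2192 bases and log2 ratios of 0.66 in counts and 0.85 in FPKM. TNFRSF21 and TNFRSF12A had nearly equal implied lengths in both libraries, 3595 and 3595 bases and 947 and 945 bases. Implied lengths carry no error here, and transcript counts were not analysed here.

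**Figure D4:**
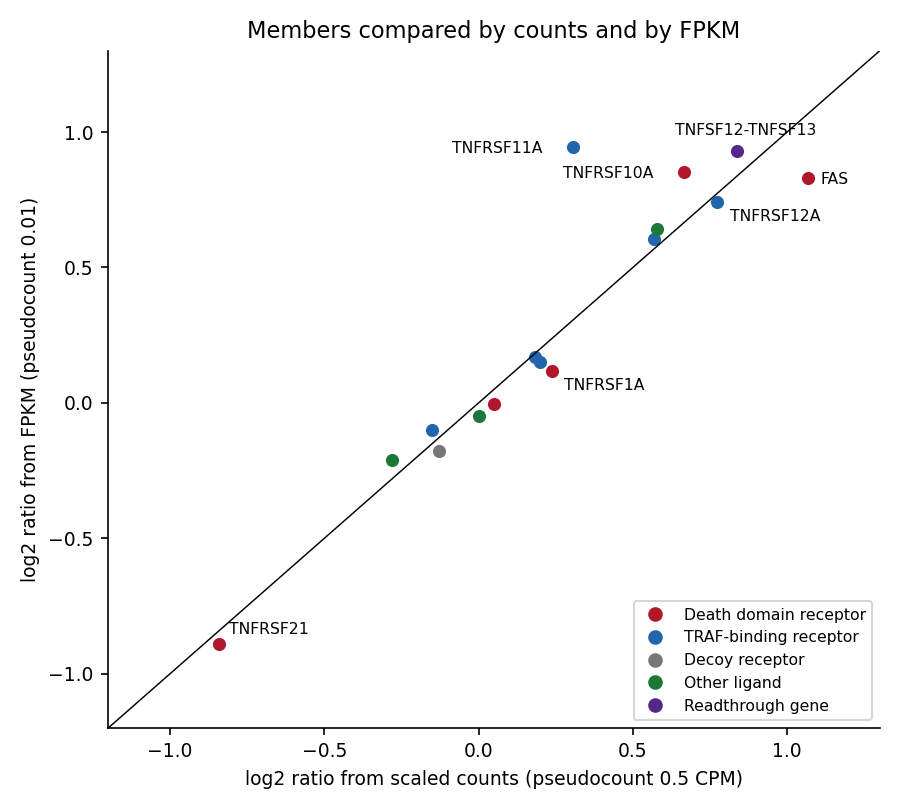
Log2 ratio of the knockdown over the control library from scaled counts (horizontal) and from deposited FPKM (vertical) for the 16 compared members, 1 library per group, with the line of equal values. TNFRSF11A lies above the line (0.31 and 0.95) and FAS below it (1.07 and 0.83).

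At a pair of loci, reads were divided among overlapping genes. TNFSF12 and TNFSF13 lie next to each other on the plus strand of chromosome 17, from 7548891 to 7557890 and from 7558292 to 7561608, and the readthrough gene TNFSF12-TNFSF13 spans both. The estimated counts of TNFSF12, TNFSF13 and the readthrough gene were 187.59, 134.05 and 43.36 in the control and 152.53, 87.58 and 69.89 in the knockdown library, each with decimals. They summed to whole numbers, 365 and 310. As 1 locus the fold was 1.05 (0.896 to 1.22), which includes no difference, while the share given to the readthrough gene was 11.9% in the control library against 22.5% after knockdown. Its own fold of 2.0 (1.35 to 3.0; log2 ratio 0.84 with 0.5 CPM added) therefore depends on that division. At the locus of TNFRSF6B, on chromosome 20 from 63696651 to 63698684, the estimated counts of RTEL1, RTEL1-TNFRSF6B and TNFRSF6B summed to 968 in the control library against 551 after knockdown, 1.43-fold lower (1.28 to 1.59). TNFRSF6B took 3.15% and 2.15% of that sum.

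Genes on lists drawn up around these receptors were compared by the same rule. None of the 56 compared genes on the lists of adaptors, regulators, NF-kB factors, targets, shedding enzymes and related family genes passed the 2-fold rule, against the 3.16% of all compared genes. At that share few of 56 genes would pass. Of all compared genes, 5722 lay above 0 and 5808 below, beside which the counts for each short list are to be read. Among 10 genes of the death-inducing complex, 7 lay above 0 (median log2 ratio 0.17) and CASP8, the initiator caspase of these receptors, lay at 0.42. TRADD and RIPK1, adaptors of TNFRSF1A, lay at -0.35 and -0.25, and CFLAR, the inhibitor of caspase-8, at -0.04. These were named after their values were seen. Of the 56 genes, 7 held the low word alone (3 above 0 and 4 below) and 12 the high word alone (7 above 0 and 5 below). MLKL, the pore-forming effector of necroptosis, had 618 and 874 counts, 1.74-fold higher (1.57 to 1.93), while RIPK3, the kinase that activates it, and ZBP1 had 0 in both libraries.

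Among 9 TRAF and IAP adaptors, 7 lay above 0 (median 0.21), where 5722 of all 11530 compared genes did. BIRC3, which encodes cIAP2, had 116 and 177 counts, 1.88-fold higher (1.48 to 2.39), and XIAP, an inhibitor of caspases, was 1.55-fold higher (1.43 to 1.69). TRAF5 was 1.31-fold lower (1.18 to 1.45). A list of 10 genes of linear ubiquitin, its removal and the TAK1 kinase complex had 7 below 0 (median -0.22). The kinase MAP3K7 and its partners TAB2 and TAB3 were 3 of these, and without them, an alternative chosen after their values were seen, 4 of 7 lay below 0 (median -0.13). The lower genes included RNF31 and SHARPIN, subunits of the linear ubiquitin ligase, 1.38-fold (1.27 to 1.49) and 1.33-fold lower (1.16 to 1.51). TNIP1, an inhibitor of TNF signalling, was 1.59-fold higher (1.48 to 1.70). The 12 NF-kB genes lay between -0.32 (MAP3K14, the kinase of the non-canonical route) and 0.29 (NFKB2), with a median of 0.08 and IKBKB at -0.25.

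Of 15 genes known to be induced by TNF, 7 were compared and 6 of these lay above 0 (median 0.18). CXCL8, which encodes interleukin-8, had 98 and 147 counts, 1.85-fold higher (1.42 to 2.41). TNFAIP8 was 1.56-fold higher (1.39 to 1.75), and IER3 1.18-fold higher (1.12 to 1.24). Under the floor, CXCL1, a neutrophil chemokine, had 71 and 28 counts, 2.06-fold lower (1.31 to 3.31), CXCL3 had 16 and 5 counts, IL6 had 19 and 9 and CXCL2 had 19 and 18. These were also named after their values were seen. Of the shedding enzymes and their regulators, which set how much receptor and ligand leaves the cell surface, ADAM10 was 1.5-fold lower (1.45 to 1.56) at 7058 and 3813 counts. TIMP3, an inhibitor of ADAM17, was 1.71-fold higher (1.61 to 1.81), and RHBDF2, a partner of ADAM17, 1.31-fold higher (1.17 to 1.46). Of the family genes outside the symbol rule, RELT had a log2 ratio of 0.53 and EDA of -0.21. In the authors' deposited table, the annotated TNF signalling pathway holds 114 genes. Of the 83 compared here, 2 passed the 2-fold rule upwards, 1 of them FAS, and 1 downwards, which is 3.61% against the 3.16% of all compared genes. The median was 0.00, and this pathway was chosen after other values were seen.

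**Figure D5:**
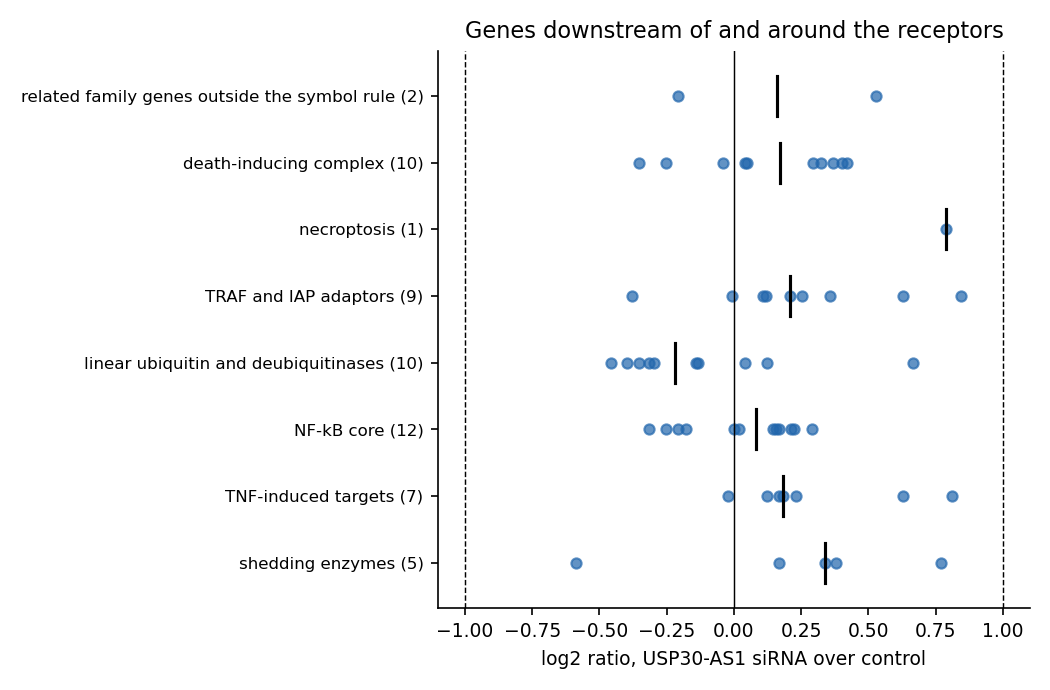
Log2 ratio (0.5 CPM added) of each compared gene on the lists around the receptors, 1 point per gene with the number compared in brackets, black bars at the median and dashed lines at 2-fold, from 1 library per group. All points lie within the dashed lines, and the linear ubiquitin list is the one with its median below 0, at -0.22.

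The identity of the cells was checked with marker lists. All 6 mesenchymal markers of the line were present (2636 summed CPM in the control library against 3667 after knockdown). VIM (1544 and 2264 CPM), CD44 (154 and 393) and AXL (199 and 293) were higher. FN1 (553 and 560) and SPARC (86.2 and 84.7) were nearly level, and ZEB1 was lower (100 and 72.7). Of 10 leukocyte markers, 5 were at 0 in the control library against 7 after knockdown, including CD3E and MS4A1 in both, and the list summed to 2.91 and 3.27 CPM. Most of that sum came from CD14, with 40 and 42 counts, and NCAM1, with 21 and 19. PTPRC, which encodes CD45, had 2 and 0 counts. Of 6 luminal and hormone receptor markers, PGR was at 0 in both libraries, and the list summed to 61.3 and 65.7 CPM, mostly from ERBB2. The endothelial list summed to 14.3 and 8.26 CPM, mostly from PECAM1 with 226 and 128 counts. CDH5 had 91 and 8 counts, KDR 16 and 16, TEK 5 and 7 and VWF 1 and 0. The fibroblast list summed to 34.8 and 28.1 CPM, nearly all from PDGFRB with 654 and 322 counts and COL1A1 with 170 and 213. COL1A2 had 0 and 1 counts and COL3A1 1 and 4, while DCN and LUM had 0 in both libraries. The red cell list summed to 0.0844 and 0 CPM. The part of these levels in the results above was not tested.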

How the data were processed

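The members and gene lists were chosen with earlier results of these data known. Per the file headers, the deposited table gives counts and FPKM per library. The authors' deposited counts are read as estimated counts, because 12.0% of control and 11.4% of knockdown values are not whole and the submitters' processing notes name RSEM, beside fastp 0.18.0, HISAT2, StringTie 1.3.1 and GRCh38. The authors normalized the deposited FPKM for length and depth. The columns are named Si-NC and Si-179. Si-NC matches the control, so Si-179, whose meaning is not given, was assigned to the knockdown. A second deposited FPKM pair, with 0 replaced by 0.001, the deposited log2 fold change and the deposited p-values and FDR (test not stated) were not used for calls.

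Estimated counts were rounded to whole numbers, divided by library totals and by TMM factors of 1.02 and 0.983 (edgeR 4.0.16, R 4.3.3), and compared as log2((CPM + 0.5)/(CPM + 0.5)), knockdown over control. The added 0.5 understates ratios of low genes. Folds use no pseudocount and carry exact (Clopper-Pearson) 95% intervals. PCR copies are not independent molecules. The interval of the summed FPKM ratio propagates counting error alone. Median intervals in the checks are medians of members' bounds. Every member was named, and up to 3 genes of each list with the largest log2 ratio in size. Some genes this rule names are not reported here. Further genes are said to be named after their values. 3' UTRs and positions came from GENCODE 29. The 2-fold rule and the counting intervals were tried on simulated counts with counting error alone, scaled by library totals. The other steps were not tried in this way. Python 3.11.15 was used with pandas 2.3.3, numpy 2.4.6, matplotlib 3.10.9 and scipy 1.17.1. DESeq2 1.42.0 gave alternative size factors.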

Additional observations from a re-analysis of the deposited data

How the results depend on the processing

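No paired analysis was possible because each group has 1 library, so no library could be left out either. The count of members past 2-fold was 1 with DESeq2 size factors, library totals, a pseudocount of 0.1 CPM, a floor of 10 counts, no floor, and without carriers of the 3' UTR words. It was 0 in FPKM, with a pseudocount of 2 CPM and with a floor of 200 counts, which leaves out FAS, and 5 at 1.5-fold. The median of death receptors was 0.12 in FPKM, and 0.14 with a floor of 200 counts and without word carriers. The difference between death receptors and receptors without a death domain ranged from -0.27 to 0.05. With the TNFSF12 locus summed, an alternative chosen after seeing the data, the ligand median was 0.32. The log2 change of the summed FPKM ratio was -0.24 without TNFRSF21, -0.41 without TNFRSF12A, -0.045 without both and -0.59 in scaled CPM. Of 80 recomputed ratios of single members, 77 stayed within the counting interval. The other 3 were FPKM values of TNFRSF10A (0.85), TNFRSF1A (0.12) and TNFRSF11A (0.95). TNFSF12, at 0.00, was -0.05 in FPKM and -0.04 with library totals, and TNFRSF10B, at 0.05, was -0.01 in FPKM. The ligand median, at 0.00, took the same negative values as TNFSF12 under both settings and was -0.02 with no floor. The causes were not tested. Members under 50 counts are limited by depth.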
